A study of Mus musculus with 3 samples.

Results

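Laminins are the large glycoproteins that form the cell-side sheet of the basement membrane, and the 9 laminin chain genes *Lama1*, *Lama2*, *Lama3*, *Lama4*, *Lama5*, *Lamb1*, *Lamb2*, *Lamb3* and *Lamc1* were followed across a murine colon adenocarcinoma line and its sublines. The chains were found by the accession that the array design gives each probe, matched to the gene symbol, and the rule itself uses no measured value. They were represented by 16 probes of the 56605 on the array, and they are 9 of the 22907 genes that could be named.

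Each laminin is secreted as a coiled trimer of an alpha, a beta and a gamma chain. The alpha chain carries the large globular end that binds integrins and dystroglycan on the cell surface, and other parts of the trimer join it to further trimers and to nidogen. In the gut, laminins with the *Lama5* chain lie under the epithelium, and a trimer that holds the *Lama3* and *Lamb3* products anchors epithelial cells through integrin alpha6 beta4 in many tissues.

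Colon26 is a parental adenocarcinoma line, LuM1 is a subline labelled as high-metastatic, and NM11 is a subline labelled as low-metastatic. All lines were female BALB/c cells, grown for 3 days without treatment in RPMI1640 with serum and antibiotics, and 0.1 µg of total RNA per line was labelled with Cy3. Whether a subline is a single clone is not stated in the sources used here. There was 1 array per line and 3 arrays in all, so the differences have no replicates behind them and were not tested.

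The values are scanner signals scaled so that the 75th percentile of every array became 585.1, and the ± after a signal is the scanner software's own error of that spot, which does not cover the spread between cultures. Well above background, by the software's flag, were 49.9% of all probes in Colon26, 53.8% in LuM1 and 52.5% in NM11, and none was marked as saturated. The lowest signal that counted as well above background was 26.4 in Colon26, 20.1 in LuM1 and 19.6 in NM11, and these levels serve as the floor where a line has only a bound. Epithelial markers were mostly dim in these cells labelled as adenocarcinoma. *Cdh1*, *Krt18*, *Krt19*, *Cldn4*, *Cdx1* and *Vil1* were not well above background on any array, whereas *Krt8*, *Krt20*, *Cldn7* and *Cdx2* were on all of them. The 11 epithelial markers summed to a signal of 1264 in Colon26, 519.8 in LuM1 and 492.5 in NM11. In the same order, *Krt20* (651, 54.5 and 157) and *Cdx2* (443, 232 and 167) made up most of it. The markers did not move one way. *Krt8* was the highest in LuM1 (28.9, 108 and 37.1), and *Epcam* was well above background in LuM1 alone (28.0).

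The promoters of *Lama5*, *Lamb1* and *Lamb3* are shown because the first had the widest spread of signal among the chains measured in every line, the second had a bright signal in every line, and the third was well above background in a single line. Each is the 250 bases before a RefSeq start site in GRCm38.p6, read in the direction of the gene, and the capitals mark every GC box (GGGCGG, either strand). The table of promoters matched 5 of the 9 chains.
*Lama5*, minus strand, chr2:180225860-180226109: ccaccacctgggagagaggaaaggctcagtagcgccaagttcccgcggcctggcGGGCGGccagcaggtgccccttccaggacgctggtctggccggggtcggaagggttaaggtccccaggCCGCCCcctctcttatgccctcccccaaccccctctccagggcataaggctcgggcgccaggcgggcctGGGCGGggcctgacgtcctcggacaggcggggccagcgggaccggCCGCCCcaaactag
*Lamb1*, plus strand, chr12:31265043-31265292: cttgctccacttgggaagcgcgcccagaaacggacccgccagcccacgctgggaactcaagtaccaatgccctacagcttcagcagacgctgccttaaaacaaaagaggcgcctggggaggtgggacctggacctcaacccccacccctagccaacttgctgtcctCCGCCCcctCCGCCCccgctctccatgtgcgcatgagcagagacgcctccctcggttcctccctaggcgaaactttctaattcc
*Lamb3*, first start site, plus strand, chr1:193301744-193301993: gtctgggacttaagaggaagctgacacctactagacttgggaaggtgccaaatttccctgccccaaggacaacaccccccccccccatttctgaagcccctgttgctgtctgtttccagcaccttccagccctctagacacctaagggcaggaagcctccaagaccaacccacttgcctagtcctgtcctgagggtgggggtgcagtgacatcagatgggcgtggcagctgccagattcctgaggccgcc

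The *Lama5* window held 4 GC boxes and 19 CpG dinucleotides, with 72.4% G and C. The *Lamb1* window held 2 GC boxes and 14 CpG dinucleotides, with 62% G and C, whereas the *Lamb3* window held 0 and 2, with 58.8%. Among 32851 promoters of the same length, the median window had 6 CpG dinucleotides and 52.4% G and C, and a GC box was found in 32.7%. An E-box (CANNTG, either strand), a motif in 66.2% of all promoters, occurred 2 times in the *Lama5* window, 2 times in that of *Lamb1* and 3 times in that of *Lamb3*. Neither the AP-1 motif TGANTCA, present in 6.75% of all promoters, nor the TATA box TATAAA, present in 12.4%, occurred in these windows. The factors that bind such motifs were not measured.

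Among the chains measured in every line, *Lama5* differed most between the lines. Its probe gave a signal of 11140 ± 1114 in Colon26, 14663 ± 1466 in LuM1 and 383 ± 38.5 in NM11. Colon26 and LuM1 were thus both bright, and NM11 stood far below them. NM11 cells had 29.1-fold less signal than Colon26 cells (log2 ratio -4.86 ± 0.20), and LuM1 cells had 38.3-fold more than NM11 cells (log2 ratio 5.26 ± 0.20). The LuM1 signal exceeded that of Colon26 by 1.32-fold (log2 ratio 0.40 ± 0.20).

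Of the 12466 genes measured in both NM11 and Colon26, 8 had a ratio as low as that of *Lama5*, the gene itself included. Of the 12845 measured in both LuM1 and NM11, 25 had a ratio as high. Under the 7 other scalings and background corrections, the log2 ratio of NM11 over Colon26 stayed between -5.35 and -4.50. That of LuM1 over NM11 stayed between 5.13 and 5.85. The settings for background flags and choice of probe could not move these ratios, because the only *Lama5* probe was well above background in every line. A single probe represents *Lama5*, so no second probe checks it. The spots printed around it had a median log2 ratio of -0.11 over 13 spots in NM11 over Colon26, with a range of -1.26 to 1.21, all far from the ratio of *Lama5*. The genes beside it on chromosome 2 did not share the difference, with log2 ratios of NM11 over Colon26 of 0.07 for *Adrm1* and -0.30 for *Rps21*. In RNA from a whole culture, fewer cells that express a gene and less RNA of it per cell cannot be told apart.

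*Lama3*, the alpha chain of the anchoring laminin of epithelia, ordered the lines in part like *Lama5*. Its brighter probe gave 171 ± 17.9 in Colon26, 137 ± 14.3 in LuM1 and 36.4 ± 5.36 in NM11. NM11 was again the lowest line, 4.70-fold below Colon26 (log2 ratio -2.23 ± 0.26) and 3.76-fold below LuM1 (log2 ratio of LuM1 over NM11 1.91 ± 0.26). Colon26 and LuM1 differed by little more than the error of the spots (log2 ratio -0.32 ± 0.21), and this ratio turned to 0.13 in the authors' processed values. The other *Lama3* probe lay between 17.2 in Colon26 and 7.40 in NM11 and was not well above background on any array, so the ratio rests on 1 probe. With normexp background correction the log2 ratio of NM11 over Colon26 shrank to -1.11 and that of LuM1 over NM11 to 0.86.

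The other alpha chains were not well above background in any line. *Lama1*, the alpha chain of early embryonic basement membranes, gave signals of 6.07 in Colon26, 4.60 in LuM1 and 4.31 in NM11. The probes of *Lama2*, the main alpha chain around muscle fibres, ranged from 4.10 to 6.74, and those of *Lama4*, the alpha chain of blood vessel walls, from 3.98 in NM11 upwards, under the floor of each array. All 5 probes missed that flag on every array, though 1 *Lama2* probe was significantly above background in NM11 (6.74), so these chains have no ratio. Endothelial markers were dim as well, with 1 of 7 well above background in every line (*Pecam1*).

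**Figure D1:**
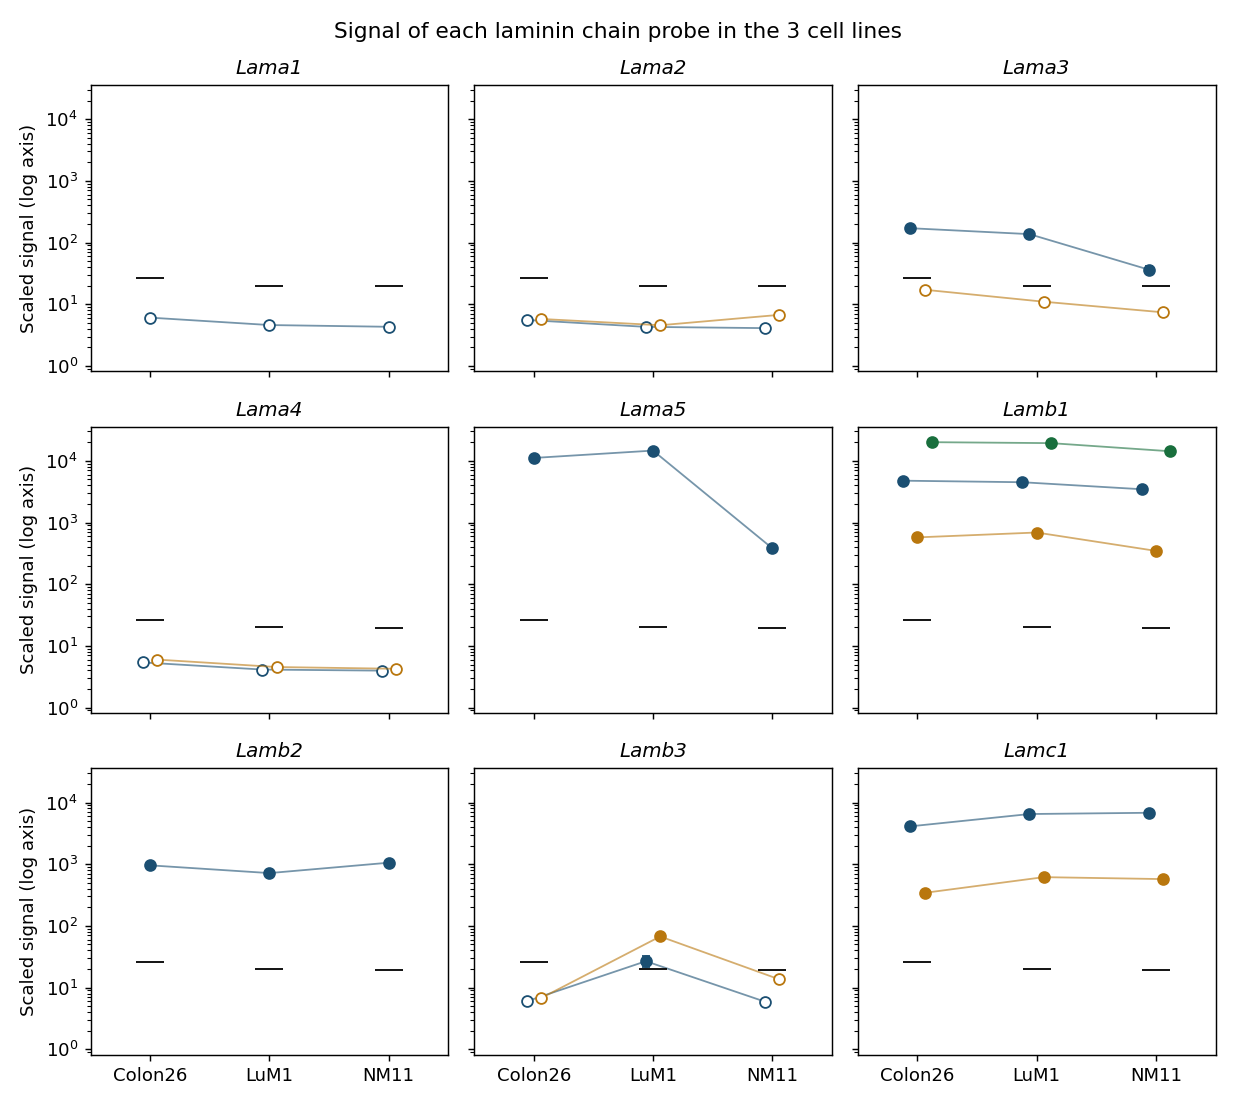
Scaled signal (log axis) of each of the 16 laminin chain probes in Colon26, LuM1 and NM11, with 1 line per probe, filled points for spots well above background with the scanner error, open points for spots that were not, and black dashes at the lowest signal well above background on that array. *Lama5* drops from 11140 and 14663 to 383 in NM11, while all *Lama1*, *Lama2* and *Lama4* points are open.

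*Lamb1*, the beta chain found in most basement membranes, differed by less than 2-fold between the lines on all 3 of its probes. The brightest gave 20070 ± 2007 in Colon26, 19367 ± 1937 in LuM1 and 14294 ± 1429 in NM11. Another gave 4768, 4502 and 3466 in the same order, and the dimmest 575, 689 and 347. NM11 was the lowest line on every probe, with log2 ratios over Colon26 from -0.73 to -0.46 and none past 2-fold. LuM1 and Colon26 were not separated on the brightest probe (log2 ratio -0.05 ± 0.20), and the sign of that ratio turned under 6 of 11 alternatives, to as much as 0.40 in the authors' processed values. The log2 ratio of LuM1 over NM11, 0.44 ± 0.20 on the brightest probe, stayed above 0 throughout and reached 1.03 when the arrays were scaled to *Hprt*. Over the 3 probes that ratio ran from 0.38 to 0.99, the highest on the dimmest probe.

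*Lamb2*, the beta chain of nerve-muscle junctions and kidney filters, gave 958 ± 96.0 in Colon26, 718 ± 71.9 in LuM1 and 1058 ± 106 in NM11. LuM1 was the lowest line and NM11 the highest, but all lines lay within 2-fold. The log2 ratio of LuM1 over Colon26 was -0.42 ± 0.20 and turned to 0.03 in the authors' processed values, and that of LuM1 over NM11 was -0.56 ± 0.20 and turned to 0.03 after scaling to *Hprt*. NM11 and Colon26 differed by less than the error of the spots (log2 ratio 0.14 ± 0.20), a sign that turned to -0.35 after scaling to *Hprt* and to -0.19 after scaling to the E1A spike-in controls.

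*Lamb3*, the beta partner of *Lama3* in the anchoring laminin, was well above background in LuM1 alone, on both of its probes. The brighter probe gave 67.4 ± 8.48 in LuM1, against 6.74 in Colon26 and 13.6 in NM11. The other gave 26.8 ± 5.37 in LuM1, 5.99 in Colon26 and 5.90 in NM11. On the brighter probe LuM1 was thus at least 2.55-fold above Colon26 and at least 3.44-fold above NM11. The other probe allowed only a log2 ratio of at least 0.02 over Colon26 and at least 0.45 over NM11. The limit over Colon26 fell under 2-fold with normexp (log2 0.68) and with the mean over both probes (log2 0.69), and that over NM11 with normexp (log2 0.64). *Lamb3* entered the comparisons only through its signal in LuM1, so it had to come out higher there.

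*Lamc1*, the gamma chain of most laminins, was the lowest in Colon26 on both probes. The brighter gave 4107 ± 411 in Colon26, 6505 ± 651 in LuM1 and 6817 ± 682 in NM11, and the dimmer 343, 617 and 574. The log2 ratios over Colon26 were 0.66 ± 0.20 for LuM1 and 0.73 ± 0.20 for NM11 on the brighter probe, and 0.85 and 0.74 on the dimmer. They did not reach 2-fold, except that LuM1 over Colon26 rose to 1.11 in the authors' processed values. The sublines were not separated (log2 ratio of LuM1 over NM11 -0.07 ± 0.20), and that sign turned under 7 of 11 alternatives.

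**Figure D2:**
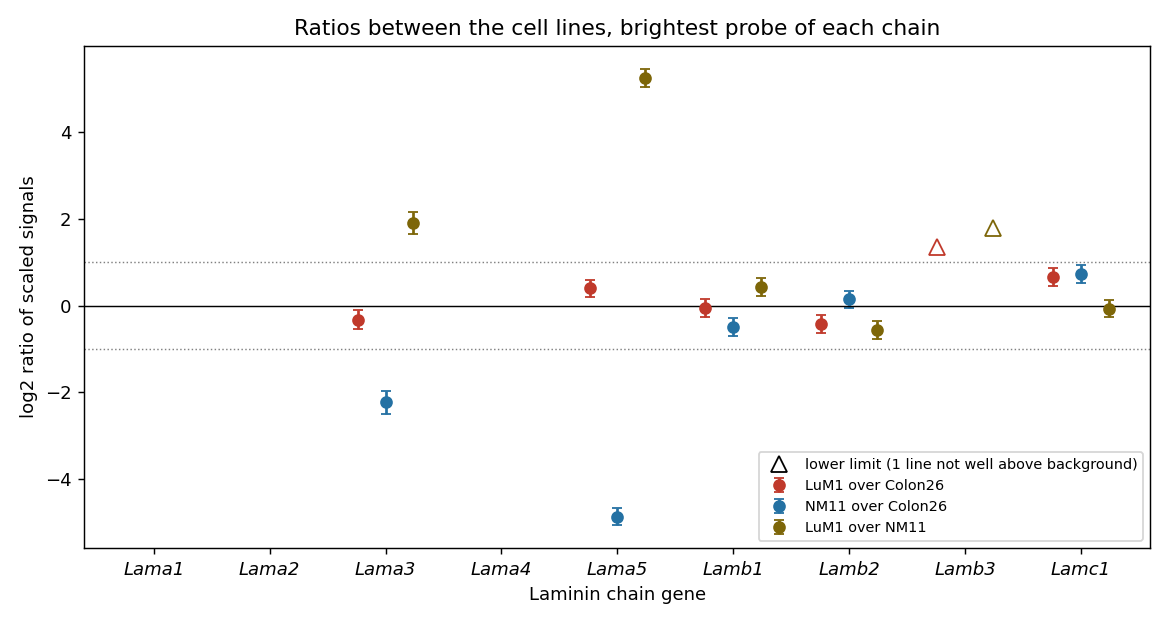
Log2 ratios of scaled signals between the cell lines for the brightest probe of each chain, with bars for the scanner error of both spots, open triangles for lower limits where a line was not well above background, and dotted lines at 2-fold. The ratios of *Lama5* and *Lama3* that involve NM11 and the limits of *Lamb3* lie outside the dotted lines, and *Lama1*, *Lama2* and *Lama4* have no ratio.

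In LuM1 over Colon26, 6 chains had a ratio, of which 1 was at least 2-fold higher (*Lamb3*) and 0 were lower. Among all 14347 genes well above background in either line, 12.9% were at least 2-fold higher and 11.7% lower. The median log2 ratio of the 5 chains measured on both arrays was -0.05, against -0.13 over 12391 genes. With so few chains, their count cannot be set apart from that background.

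In NM11 over Colon26, 5 chains had a ratio, of which 0 were at least 2-fold higher and 2 were lower (*Lama3* and *Lama5*). The shares among all 14104 genes well above background in either line were 8.17% higher and 7.74% lower. The median log2 ratio of the 5 chains was -0.49, against -0.02 over 12466 genes.

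In LuM1 over NM11, 6 chains had a ratio, of which 3 were at least 2-fold higher (*Lama3*, *Lama5* and *Lamb3*) and 0 were lower. Among all 14409 genes well above background in either line, 11.1% were higher and 8.5% lower. The median log2 ratio of the 5 chains measured on both arrays was 0.44, against -0.11 over 12845 genes. The comparisons share arrays, so *Lama3* and *Lama5* appear in both comparisons with NM11 through the same signal.

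These backgrounds moved with the scaling. The higher genes were 52.5% of those called in LuM1 over Colon26 and 77.7% in the authors' processed values, where the median log2 ratio of all genes shifted by 0.45. In NM11 over Colon26 they were 51.4%, but 20.1% after scaling to *Hprt* (shift -0.49) and 28.3% after scaling to E1A (shift -0.34). In LuM1 over NM11 they were 56.6%, but 87.8% with *Hprt* (shift 0.59), 81.4% in the authors' processed values (shift 0.41), 77.7% with E1A (shift 0.33) and 68.6% with no scaling (shift 0.18). The same 2 chains, *Lama3* and *Lama5*, were lower in NM11 than in Colon26 under each of these scalings.

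**Figure D3:**
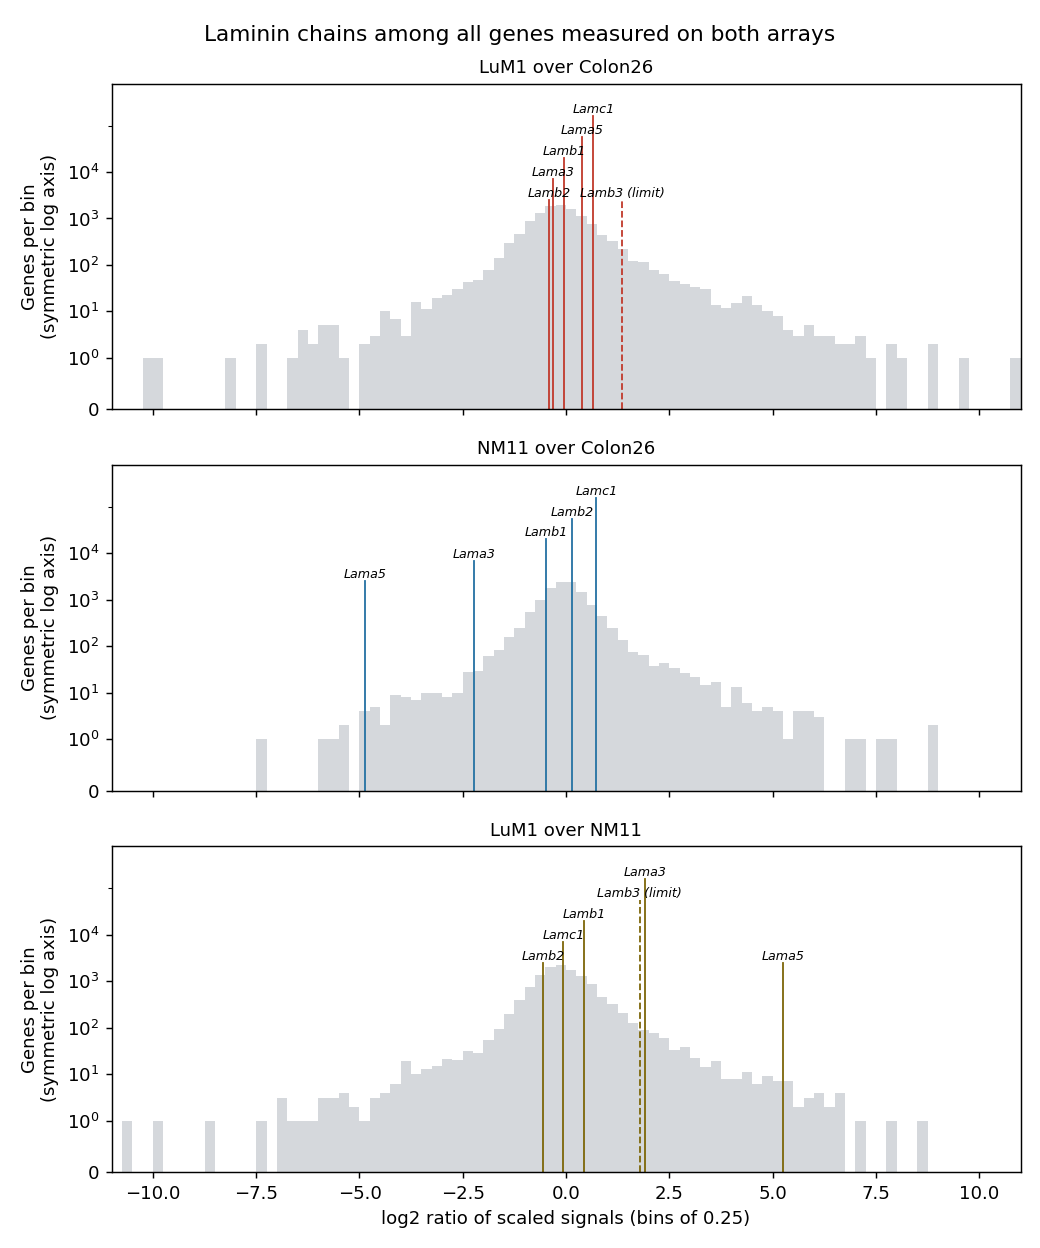
Number of named genes (symmetric log axis) per bin of 0.25 in log2 ratio, for genes measured on both arrays of a comparison, with the laminin chains as vertical lines and lower limits dashed. *Lama5* lies in the sparse tail of NM11 over Colon26 (-4.86) and of LuM1 over NM11 (5.26), while *Lamb1*, *Lamb2* and *Lamc1* lie in the bulk of every panel.

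The genes whose pattern over the 3 lines was nearest to that of a chain were sought, among 12242 genes that passed the background flag in every line, by the distance between mean-centred log2 signals. *Sulf2*, an extracellular enzyme that takes sulfate groups off heparan sulfate, was the nearest to *Lama5* at a distance of 0.141, with signals of 1239 in Colon26, 1751 in LuM1 and 48.9 in NM11. It was the single gene within 0.25, and *Gm17745* followed at 0.420 with 1241, 1162 and 29.4. For *Lama3*, 12 genes lay within 0.25, led by *Sh3yl1* at 0.0558 with 152, 128 and 33.4 and by *Il27ra*, a cytokine receptor chain, at 0.0857 with 945, 705 and 187. With 3 lines there are few ways to differ, and these distances are a description.

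Among further genes of the laminin family, *Lamc3*, a gamma chain, was not well above background in any line. The netrins, secreted guidance proteins with laminin-like domains, were dim in Colon26. *Ntn1* gave 6.07 in Colon26, 27.7 in LuM1 and 147 in NM11, and *Ntn5* gave 6.28, 75.6 and 112. NM11 exceeded Colon26 by at least 5.57-fold for *Ntn1* and at least 4.24-fold for *Ntn5*. *Ntn3* was well above background in LuM1 alone, with 62.4 against 24.8 in Colon26 and 14.8 in NM11. The second probes of *Ntn3* and *Ntn5* were not well above background in any line. *Ntn4* gave 28.9 in Colon26, 48.3 in LuM1 and 4.53 in NM11, where it was not well above background.

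The receptors that laminins bind differed in the integrins of the anchoring junction. *Itgb4*, the beta chain of that junction, gave 348 in Colon26, 7750 in LuM1 and 1973 in NM11. *Itga6*, its alpha partner, gave 5697 in Colon26, 19845 in LuM1 and 7444 in NM11. Both were highest in LuM1, *Itgb4* by 22.3-fold and *Itga6* by 3.48-fold over Colon26. *Itga3*, the alpha chain of another laminin receptor, was the highest in Colon26 with 2256, against 1229 in LuM1 and 825 in NM11. *Itgb1*, the common beta chain, and *Dag1*, which encodes dystroglycan, stayed within 2-fold, with 15219, 18627 and 17630 for the first and 6991, 5642 and 8155 for the second in Colon26, LuM1 and NM11.

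Of the 14 receptor genes, 13 had a ratio in LuM1 over Colon26, with 3 higher (*Itga6*, *Itgb4* and *Sdc4*) and 1 lower (*Itga7*, log2 ratio -1.04), where 12.9% of all genes were higher and 11.7% lower. In NM11 over Colon26, 12 had a ratio, with 2 higher (*Itga1*, a limit of 1.05 in log2, and *Itgb4*) and 1 lower (*Itga3*), where 8.17% and 7.74% of all genes were. In LuM1 over NM11, 13 had a ratio, with 2 higher (*Itga6* and *Itgb4*) and 0 lower, where 11.1% and 8.5% of all genes were. The probes of *Itga1* disagreed. The one used gave 49.9 in LuM1 and 54.7 in NM11 and was not well above background in Colon26, but the other gave 13.6, 132 and 4.07, well above background in LuM1 alone and there at least 6.74-fold above NM11. The second *Itga3* probe also had a lower signal in NM11 than in Colon26, but not by 2-fold (log2 ratio -0.84). Under other scalings the lower call on *Itga7* was lost in part (counts of 0 to 1), and up to 5 receptors were higher in LuM1 than in NM11. The median log2 ratio of the receptors was 0.26, 0.21 and 0.23 in the same order of comparisons, and ratios of this size can change sign with the scaling. *Bcam*, an adhesion molecule that binds the *Lama5* chain, was not well above background in any line. *Rpsa*, named as a laminin receptor but also a ribosomal protein with many near-identical copies in the genome, gave 199130, 140195 and 192983, and its probe may read those copies too.

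Several partners of laminin in the basement membrane were higher in LuM1 than in Colon26. *Col18a1*, whose product carries endostatin, gave 784 in Colon26, 20400 in LuM1 and 1526 in NM11. *Col4a1* and *Col4a2*, the paired chains of the common type of basement membrane collagen, gave 5444 and 3731 in LuM1, against 1387 and 1252 in Colon26 and 1113 and 1138 in NM11. LuM1 was the highest line for all of them, by 26.0-fold over Colon26 for *Col18a1*. *Nid1*, the nidogen that links the laminin and collagen sheets, gave 1819, 6109 and 3734 in Colon26, LuM1 and NM11. The heparan sulfate proteoglycans *Hspg2* and *Agrn*, which bind both laminin and dystroglycan, hardly differed, with 3744, 3978 and 3990 for the first and 4094, 4003 and 4220 for the second.

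Of the 17 partner genes, 13 were well above background in LuM1 or Colon26, and *Nid2* among them gave no ratio. In LuM1 over Colon26, 6 were higher (*Nid1*, *Col4a1*, *Col4a2*, *Col18a1*, *Fbln1* and *Fbln2*) and 3 lower (*Col4a4*, *Col4a5* and *Npnt*). The shares of all genes were 12.9% higher and 11.7% lower. The 3 lower genes were not well above background in LuM1, so they could only come out lower there. The same held for *Col4a4* in NM11 over Colon26 and *Col4a5* in LuM1 over NM11. *Col4a5*, a chain of kidney basement membranes, gave 585 in Colon26 and 424 in NM11 but 10.8 in LuM1, which was at least 29.1-fold below Colon26. In NM11 over Colon26, 12 had a ratio, with 1 higher (*Nid1*, log2 ratio 1.04) and 1 lower (*Col4a4*), which is near the background of 8.17% and 7.74%. In LuM1 over NM11, 12 had a ratio, with 4 higher (*Col4a1*, *Col4a2*, *Col18a1* and *Fbln1*) and 1 lower (*Col4a5*), where 11.1% and 8.5% of all genes were. Under the 7 other scalings and background corrections the count of partners higher in NM11 ran from 0 to 2. The median log2 ratio of the partners was 1.58 in LuM1 over Colon26, 0.04 in NM11 over Colon26 and 0.93 in LuM1 over NM11.

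**Figure D4:**
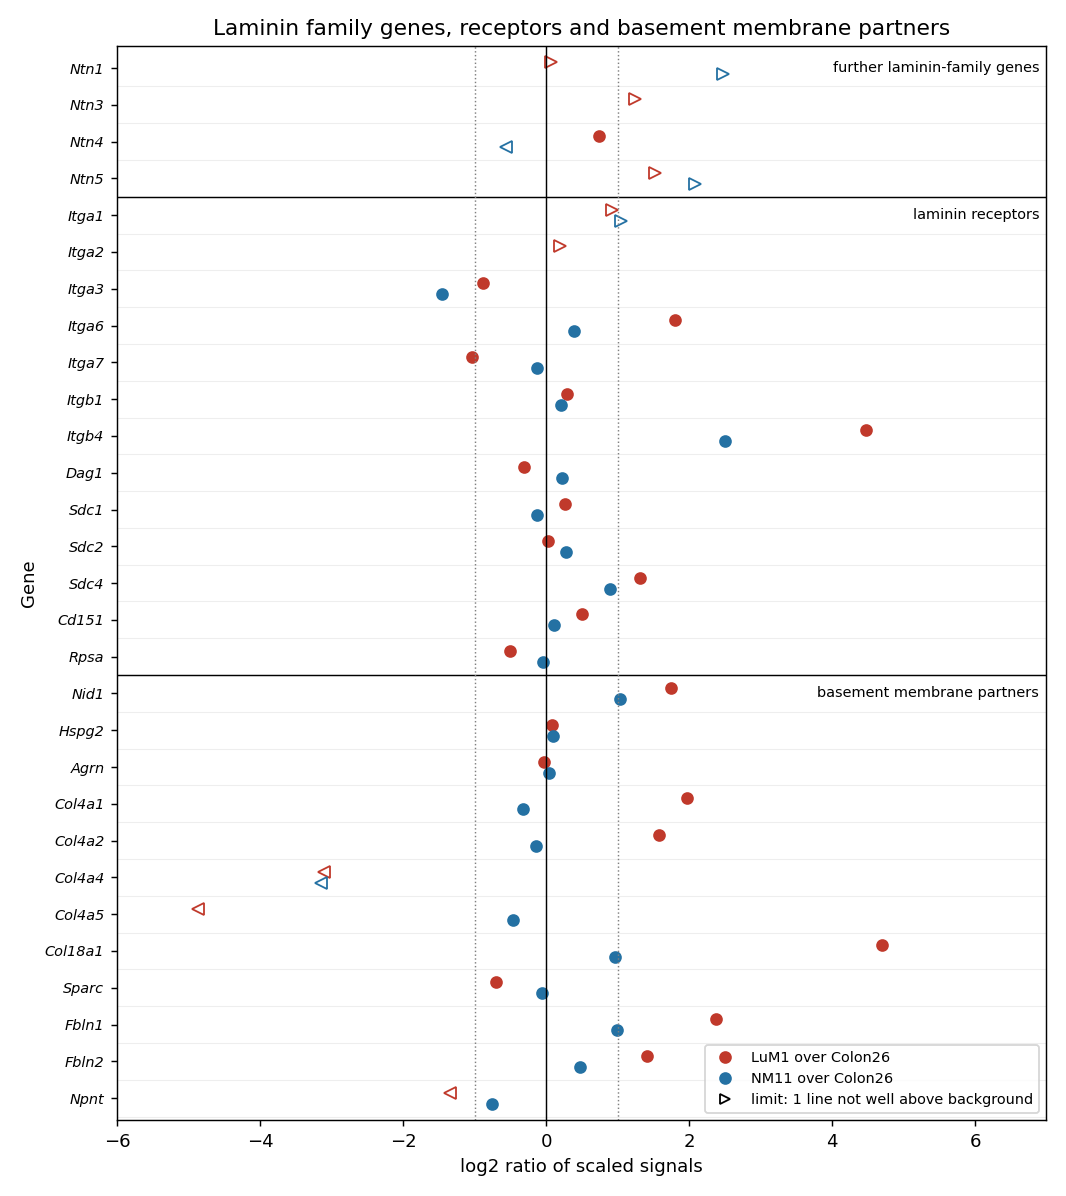
Log2 ratios of scaled signals of LuM1 and NM11 over Colon26 for further laminin-family genes, laminin receptors and basement membrane partners, with open triangles for limits where a line was not well above background and dotted lines at 2-fold. *Itgb4* (4.48 for LuM1) and *Col18a1* (4.70 for LuM1) reach the right side of the plot, and *Hspg2* and *Agrn* lie near 0.

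Some enzymes that cut laminins were higher in LuM1, and in part in NM11, than in Colon26. *Mmp3*, a secreted matrix protease, gave 58.6 in Colon26, 103171 in LuM1 and 29944 in NM11. *Mmp2*, a gelatinase, gave 5.81 in Colon26, 1512 in LuM1 and 1691 in NM11. *Mmp9*, also a gelatinase, was high in LuM1 alone, with 2311 against 11.3 in Colon26 and 24.7 in NM11. *Plau*, the urokinase that activates plasmin, gave 325 in Colon26, 2537 in LuM1 and 1427 in NM11, and *Bmp1*, which trims laminin chains after secretion, gave 3681, 5139 and 2639.

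Of the 11 enzyme genes, 9 had a ratio in LuM1 over Colon26, with 4 higher (*Mmp2*, *Mmp3*, *Mmp9* and *Plau*) and 1 lower (*Hpn*). The shares of all genes were 12.9% higher and 11.7% lower. *Mmp2*, *Mmp9* and *Hpn* entered as limits, through the line where they were well above background, so their direction was fixed. In NM11 over Colon26, 9 were well above background in either line, and *Mmp9* among them gave no ratio. Here 3 were higher (*Mmp2*, *Mmp3* and *Plau*) and 1 lower (*Hpn*), where 8.17% and 7.74% of all genes were. *Mmp2* and *Hpn* were limits here too. In LuM1 over NM11, 8 had a ratio, with 2 higher (*Mmp3* and *Mmp9*) and 0 lower, where 11.1% and 8.5% of all genes were, and the 2 became up to 5 under other scalings. The 3 probes of *Bmp1* did not share a direction in NM11 over Colon26, with log2 ratios of -0.48, -0.12 and 0.58.

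Of the genes that build the laminin-binding sugar of dystroglycan, 9 had a ratio, with 0 higher and 1 lower in each comparison. These counts are near the background, in which 11.7% of all genes were lower in LuM1 over Colon26, 7.74% in NM11 over Colon26 and 8.5% in LuM1 over NM11. For LuM1 over NM11 the 0 higher became 2 after scaling to *Hprt* and 1 in the authors' processed values. *Rxylt1*, a xylosyltransferase of that pathway, was lower in LuM1 than in Colon26 and NM11, with 354 in Colon26, 157 in LuM1 and 329 in NM11. Its call against Colon26 was lost in the authors' processed values and with normexp. The call against NM11 was lost there too, and also with no scaling, with *Hprt* and with E1A. *Pomt1*, which adds the first mannose, was lower in NM11 (356) than in Colon26 (726), a log2 ratio of -1.03, and the count of genes lower in NM11 than in Colon26 ran from 0 to 4 under other scalings. Their median log2 ratio was -0.39 in LuM1 over Colon26, -0.35 in NM11 over Colon26 and 0.13 in LuM1 over NM11.

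Markers of fibroblasts and leukocytes also differed between the lines. Of 8 fibroblast markers, 5 were well above background in Colon26 and 7 in each subline, with *Lum* dim on all arrays, and they summed to 66337 in Colon26, 55465 in LuM1 and 121227 in NM11. They did not move one way. In LuM1 over Colon26, 4 were at least 2-fold higher (*Col3a1*, *Dcn*, *Pdgfra* and *Thy1*) and 2 lower (*Col1a1* and *Col1a2*), where 12.9% and 11.7% of all genes were. In NM11 over Colon26 the same 4 were higher and 0 were lower, where 8.17% and 7.74% of all genes were. *Dcn* and *Thy1* were not well above background in Colon26, so they could only come out higher in the sublines. Set against NM11, LuM1 had 2 higher (*Dcn* and *Pdgfra*) and 3 lower (*Col1a1*, *Col1a2* and *Col3a1*), where 11.1% and 8.5% of all genes were. *Col1a2*, a chain of fibrillar collagen, gave 59896 in Colon26, 49.6 in LuM1 and 85275 in NM11, whereas *Thy1*, a surface glycoprotein of fibroblasts and other cells, gave 5.26, 19560 and 15416. Of 8 leukocyte markers, 4 were well above background in Colon26, 6 in LuM1 and 4 in NM11. The defining genes *Ptprc* and *Adgre1* were dim on all arrays. The 8 markers summed to 6546, 13446 and 5825. The higher sum in LuM1 came mostly from *Cd68* (172, 5251 and 299), with *Itgam* next (5027, 6818 and 4251). *Csf1r* and *Cd3e* stayed within 2-fold. The 7 endothelial markers summed to 86.2, 83.0 and 106.9, with *Pecam1* alone well above background. The part of the fibroblast and leukocyte marker differences in the signals of the laminin genes was not tested.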

How the data were processed

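Total RNA of each cell line was hybridized to 1 single-colour array of the SurePrint G3 Mouse GE 8 x 60K design. The authors deposited intensity values from Agilent Feature Extraction 11.5.1.1, background-subtracted and detrended per array, with flags for spots above background, and a table in which each array's intensity is multiplied by 1 factor (0.654 for Colon26, 0.829 for LuM1, 0.706 for NM11). The series text names no method for these factors, and the column medians are 22.6, 35.4 and 22.2.

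Control and outlier spots were left out. The signals of an array were divided by the 75th percentile over its spots other than controls (581.1, 625.1 and 551.5 as deposited) and brought to a common level. Spots of a probe were averaged, the probe brightest over the arrays stood for a gene, and log2 ratios between lines were called past 2-fold. Where 1 line was not well above background, a limit was computed against the array's lowest signal well above background, or against the line's own signal if higher. A limit that did not favour the line well above background was dropped, but its gene stayed in the shares over all genes. Of the probes, 32989 (58.3%) were named through RefSeq accessions (GRCm38.p6), and the array design used an older assembly. Scanner errors were 10.0% of bright signals, and precision is limited by how few arrays there were. The median SD of repeated probes was 0.035 to 0.040 (log2).

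The members and gene lists were chosen with earlier results of these data known. The genes named were all chains, list genes at least 2-fold different in a comparison, and the 2 genes nearest in pattern to each chain that varied 2-fold over the arrays. *Itgb1*, *Dag1*, *Bcam*, *Rpsa*, *Hspg2*, *Agrn*, *Bmp1*, *Adrm1* and *Rps21* were named in addition, with their values known. The lists held further laminin-family genes, 14 receptors, 17 partners, 11 enzymes, 10 dystroglycan genes, of which 9 were analysed, and markers of cell types, and some listed items are not reported here. There were 12 alternatives, given in the closing section. The script recovered known ratios in simulated data. These were changes of at least 4-fold, planted in probes well above background on every array and called at 2-fold. Dim probes, limits and ratios near 2-fold were not simulated, so the simulation says nothing of them. No array column belonged to another sample. The tools were limma 3.58.1 in R 4.3.3 (normexp on median spot and background brightness, offset 50) and, in Python 3.11.15, pandas 2.3.3 with numpy 2.4.6, while figures were drawn in matplotlib 3.10.9. Other experiments of the study were not analysed here.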

Additional observations from a re-analysis of the deposited data

How the results depend on the processing

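The 12 alternatives were unscaled signals, quantile normalization, division by *Hprt*, by E1A controls or by the median of the measured probes, the authors' processed values, normexp, spots significantly above background, dim probes taken at face value, averaging each gene's probes, choosing the brightest probe in LuM1 cells, and 4-fold in place of 2-fold. Of 72 counts of chains called, 64 stayed within 1.5 times the count reported, and all counts of lower chains did. Many of the 64 were counts of 0 that stayed 0, and a count of 0 could not rise at 4-fold. The 64 therefore do not measure how stable the counts were. The 1 chain higher in LuM1 than in Colon26 became 2 in the authors' processed values (*Lamc1* added), and 0 with normexp, with the mean over probes and at 4-fold. The 0 chains higher in NM11 than in Colon26 became 1 (*Lamb3*) with spots significantly above background and with no filter. The 3 chains higher in LuM1 than in NM11 became 1 with normexp and 1 at 4-fold. Of 187 log2 ratios, 127 moved by less than the scanner error, and 60 by more or, for the limits of *Lamb3*, at all. The 127 include many ratios that could not move. For chains measured in both lines, the 2 settings on background flags and the brightest probe in LuM1 returned the same ratio. Averaging probes did so for *Lama3*, *Lama5* and *Lamb2*. The 127 therefore do not measure how stable the ratios were. The calls on *Lamb3* and *Lama3* rest on 1 probe near the background, and the causes of these changes were not tested. Signals near the background limit what can be said of *Lama1*, *Lama2*, *Lama4* and *Lamb3*. No paired analysis was possible because there was 1 array per line and the labels carry no replicate numbers.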
